A study of Mus musculus with 2 samples.

Results

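The genes described here are the cytosolic ribosomal protein genes, which encode the protein parts of the ribosomes outside mitochondria. They were taken as the rows whose matched symbol is Rpl or Rps followed by a digit, or is Rpsa, Rplp0, Rplp1 or Rplp2, without pseudogene symbols and without the Rps6k kinases, and with at least 100 UMIs (unique molecular identifiers, each standing for 1 captured mRNA molecule) in the first of 2 deposited runs. This gave 85 of the 32285 genes, 51 named for the large subunit, 33 named for the small subunit, and Rps19bp1, which has a matching symbol but encodes a protein that binds Rps19 and is not part of the ribosome. The members nearest to the minimum were Rpl3l with 145 UMIs and Rpl39l with 172 UMIs, and Rpl10l, a retrogene known from testis, was left out with 0 UMIs. All 85 had a place in the mouse annotation (GENCODE vM21, GRCm38), on 19 chromosomes, with 14 of them on chromosome 7 and 4 on the X chromosome. Measured expression played no part in the rule apart from the UMI minimum.

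The samples were splenocytes of PEP-WT mice (C57BL/6 with the wild type Ptpn22 gene) and PEP-619WW mice (C57BL/6 carrying on both alleles a Ptpn22 change of arginine to tryptophan at residue 619, made by CRISPR/Cas9), which were 6 to 12 weeks old. Both groups had been infected with LCMV-cl13, a persistent strain of lymphocytic choriomeningitis virus, 8 days earlier. Spleens of 4 to 5 mice per genotype were pooled, live CD45+ cells were sorted, and 1 library per genotype and run was made with the 10x Genomics 3′ assay. The labels also name liver, the Jurkat cell line and tumor infiltrating cells, whereas the protocol and the study's methods describe spleen. The deposited data came in 2 runs under the same labels. Run 2 held 9539 PEP-WT and 11029 PEP-619WW barcodes, with medians of 1709 and 1477 genes per barcode. Those barcode and gene numbers are the ones the methods describe, so the account of mice, infection and sort above is stated for run 2, while run 1, from which the members were chosen and most values below come, is tied to it only by the labels. No source used here states whether run 1 came from the same mice or preparation. Run 2 had few lymphocytes by the gates defined below, with 2 B and 0 plasma barcodes in PEP-WT and 503 and 15 in PEP-619WW. Its Lyz2 gate held 6488 PEP-WT barcodes. Run 1 held 6937 B and 1600 Lyz2 barcodes in PEP-WT. Whether both runs hold cells of the same tissue and sort cannot be told from the sources used here, and the methods' account may not hold for either run. Mice were pooled before sequencing, so there was 1 sample per genotype, no replicate error and no test, and the intervals below are exact 95% intervals that cover counting error only.

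Ribosomal proteins fold around the ribosomal RNAs into a small subunit, which reads the mRNA, and a large subunit, which joins the amino acids. Most cells express nearly all of these genes at high and similar levels, and their mRNAs share a terminal oligopyrimidine (TOP) tract, a run of C and T (U in the RNA) that starts with C at the 5′ end and through which growth signals such as mTOR regulate their translation. Lymphocytes make new ribosomes when they are activated, while neutrophils contain little RNA when they are mature. A few members have relatives that replace them in certain tissues, such as Rpl3l in muscle and Rpl39l in male germ cells.

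Run 1, the run that the rule names, held 14821 PEP-WT barcodes with 77916082 UMIs and 8576 PEP-619WW barcodes with 56745578 UMIs, at medians of 2832 and 3293 UMIs per barcode, and 39 barcodes occurred in both libraries. Barcodes were placed in 7 gates by UMIs of other genes: CD8 T (Cd3e and Cd8b1) with no Gzmb UMI or with 3 or more, CD4 T (Cd3e and Cd4), B (Cd79a and Ms4a1), plasma (Mzb1 at 5 or more), Lyz2 (at 5 or more) and neutrophil (S100a8 plus S100a9 at 20 or more). The names are those of the gates. Every marker of T cells, B cells, plasma cells, monocytes and neutrophils that was looked at was above 0 in its own gate. The same markers were above 0 in all other gates too, so that only their levels set gates apart. The summed T cell markers reached 3272 to 3968 CPM (UMIs scaled to the total UMIs of the gate) in the 3 T cell gates and 385 to 628 CPM in the others, and the neutrophil markers reached 8762 (PEP-WT) and 15024 CPM (PEP-619WW) in the neutrophil gate. B cell markers summed to 1765 and 1602 CPM in the B gate, and plasma cell markers to 7731 and 8571 CPM in the plasma gate. The summed monocyte and macrophage markers did not set the Lyz2 gate apart from the neutrophil gate. They were at 4040 and 4528 CPM in the former and 3727 and 4811 CPM in the latter. The highest single marker held 2727 and 3364 CPM of these sums in the Lyz2 gate and 2864 and 4052 CPM in the neutrophil gate. The rest of the sum was larger in the Lyz2 gate in both genotypes. The lowest marker was at 174 and 165 CPM there, against 92.8 and 74.0 CPM in the neutrophil gate. Gates overlapped, since more than 1 was passed by 16.6% of the barcodes in PEP-WT and by 20.8% in PEP-619WW, including 73.6% and 75.7% of the neutrophil gate. Markers of red blood cells were higher in PEP-WT in every gate, for example 3227 and 439 CPM in the B gate, and immunoglobulin genes (with Jchain) took more of the UMIs in PEP-619WW in every gate, for example 5.76% and 9.22% in the B gate. Their part in the differences between genotypes was not tested beyond the values without these genes given below.

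The starts of the members shared a sequence feature that the rule did not use. In the promoter table from RefSeq (GRCm38.p6; 250 bases before to 50 after each annotated start), 65 of the 85 members were found by symbol. A run of C followed by at least 7 bases that are C or T began and ended within 50 bases on either side of the start, on the strand of the gene, in 51 of these 65 members (78.5%). The share was 28.7% of all 27025 promoters, and 27.3% of the 6727 promoters of genes with at least 1000 UMIs in run 1. On the opposite strand the run was present in 21.5% of members and 30.8% of all promoters. It was found in 5 of 12 translation factors and other TOP genes, 5 of 25 ribosome biogenesis genes and 21 of 69 mitochondrial ribosomal protein genes. A match says only that these letters are in the window, and the annotated starts may lie some bases away from the first base of the mRNA. The lines below show the run in capitals, with the bases around it in lower case, for members on which the results turn: Rps25, Rps15, Rpl38 and Rplp2, which took a larger share of UMIs in PEP-619WW of run 1, Rpl14 and Rpl22l1, which took a smaller one, and Rps27, Rps27l and Rpl36al, which differed most between gates.
Rps25 (chr9:44407684-44407708, plus strand): ccaccgggCTTCCTTTTTTTCCgac
Rps15 (chr10:80292448-80292469, plus strand): agcccgtaCTTCCTTTTCCgag
Rpl38 (chr11:114668572-114668590, plus strand): gcctcgttCTTTCCCCgtt
Rplp2 (chr7:141447639-141447658, plus strand): gtcagcgtCTTCCTTTCgcc
Rpl14 (chr9:120571501-120571525, plus strand): agggcgggCCCTCTCTCTTCTCgct
Rpl22l1 (chr3:28805503-28805521, plus strand): agcccgttCTCTTCCCacg
Rps27 (chr3:90213639-90213658, minus strand): cgctttcgCTCCTTTCCggc
Rps27l (chr9:66946056-66946075, plus strand): cgcctccaCTCCTCTCCact
Rpl36al (chr12:69184027-69184046, minus strand): ctgttcgtCCCTTTCCTgtt
Only members with the run could be shown, so the lines say nothing of how members with and without it differed.

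Together the 85 genes gave 25.9% of all PEP-WT UMIs and 24.2% of all PEP-619WW UMIs in run 1. The 3′ assay counts each captured molecule once whatever the length of the mRNA, so that levels of different genes are compared here as percent of UMIs, which was not divided by length. The median member was at 0.303% of UMIs over both libraries, and 75 of 85 members were at 0.1% or more. Rps24, of the small subunit, was the highest at 0.758%. It was followed by Rps20 at 0.689%, Rpl13 at 0.673%, Rpl32 at 0.589% and Rps18 at 0.521%. The 5 lowest were Rps27rt, an intronless copy of Rps27, at 0.00706% (9504 UMIs), Rpl7l1, a relative of Rpl7, at 0.00562%, Rps19bp1 at 0.00336%, Rpl39l and Rpl3l. The last of these, the muscle form of Rpl3, had 145 UMIs against 384698 of Rpl3. The 10 highest members together held 22.8% of the UMIs of the 85 genes.

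The largest differences lay between gates and not between genotypes. B barcodes and CD8 T barcodes without Gzmb gave the largest share of their UMIs to ribosomal protein mRNAs, and the Lyz2 and neutrophil gates the smallest. In PEP-WT the share was 30.6% in CD8 T barcodes without Gzmb, 30.2% in B, 26.4% in CD4 T, 23.7% in plasma, 23.5% in CD8 T with Gzmb at 3 or more, 19.0% in Lyz2 and 16.1% in neutrophil barcodes. In PEP-619WW the values were 28.5%, 28.3%, 25.8%, 22.6%, 23.5%, 19.3% and 16.7% in the same gates. Counting intervals were narrow (28.4 to 28.6% for the gate with the fewest barcodes) and those of neighbours in this order did not overlap, but plasma and CD8 T with Gzmb stood in the opposite order in PEP-619WW. The small subunit took 0.840 to 0.879 UMIs per UMI of the large subunit in all 14 combinations of gate and genotype, a narrow range beside that of the summed share.

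**Figure D1:**
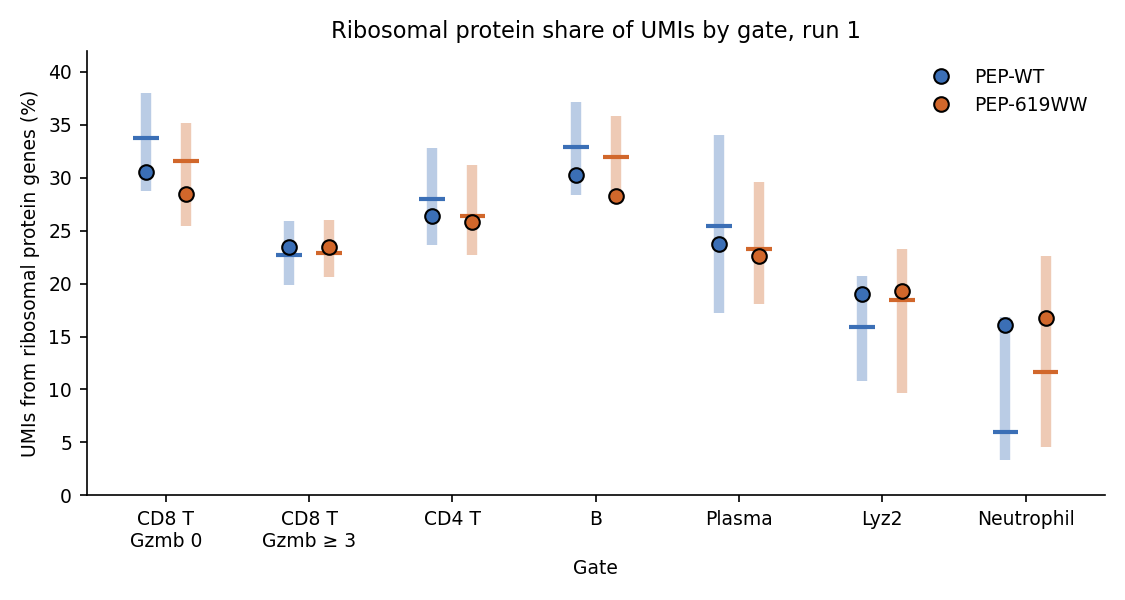
Percent of UMIs from the 85 ribosomal protein genes in each gate of run 1, for PEP-WT (blue) and PEP-619WW (orange). Points are UMIs summed over the barcodes of a gate, short lines the median barcode, and bars run from the 25th to the 75th percentile of barcodes; summed values fell from 30.6% in PEP-WT CD8 T barcodes without Gzmb to 16.1% in PEP-WT neutrophil barcodes.

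Within a gate the barcodes differed more from each other than the genotypes did. In the B gate the median barcode was at 32.9% in PEP-WT and 31.9% in PEP-619WW, with 25th to 75th percentiles of 28.3 to 37.2% and 27.8 to 35.9%. The neutrophil gate was not 1 population by this measure. Under 8% of UMIs, a limit set after the distribution had been seen, lay 54.2% of its PEP-WT and 44.9% of its PEP-619WW barcodes. The median neutrophil barcode was thus at 6.02% in PEP-WT and 11.7% in PEP-619WW, although the summed values were 16.1% and 16.7%. The Lyz2 gate had a low group as well, with 18.7% and 23.7% of its barcodes under 8%. In the B gate the shares under 8% were 0.144% and 0.286%.

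The low group lay with neutrophil genes. Barcodes of the neutrophil gate with 5 or more UMIs of Ly6g, Retnlg, Cxcr2, Csf3r and Mmp9 together had median shares of 4.78% in PEP-WT (674 barcodes) and 6.28% in PEP-619WW (687). Those with 1 to 4 such UMIs had 15.3% and 23.1%, and those with none had 17.7% and 21.1%. Barcodes that passed the neutrophil gate and no other had summed shares of 8.18% (8.09 to 8.26%; 213 barcodes) and 12.9% (12.8 to 13.0%; 210). Barcodes with 20 to 39 UMIs of S100a8 plus S100a9 had summed shares of 21.4% and 23.4%, and there were 69 of them in PEP-WT and 171 in PEP-619WW, whereas 100 or more such UMIs went with 14.8% and 14.1%. The genotypes thus differed in how many barcodes of this gate lay near its threshold.

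**Figure D2:**
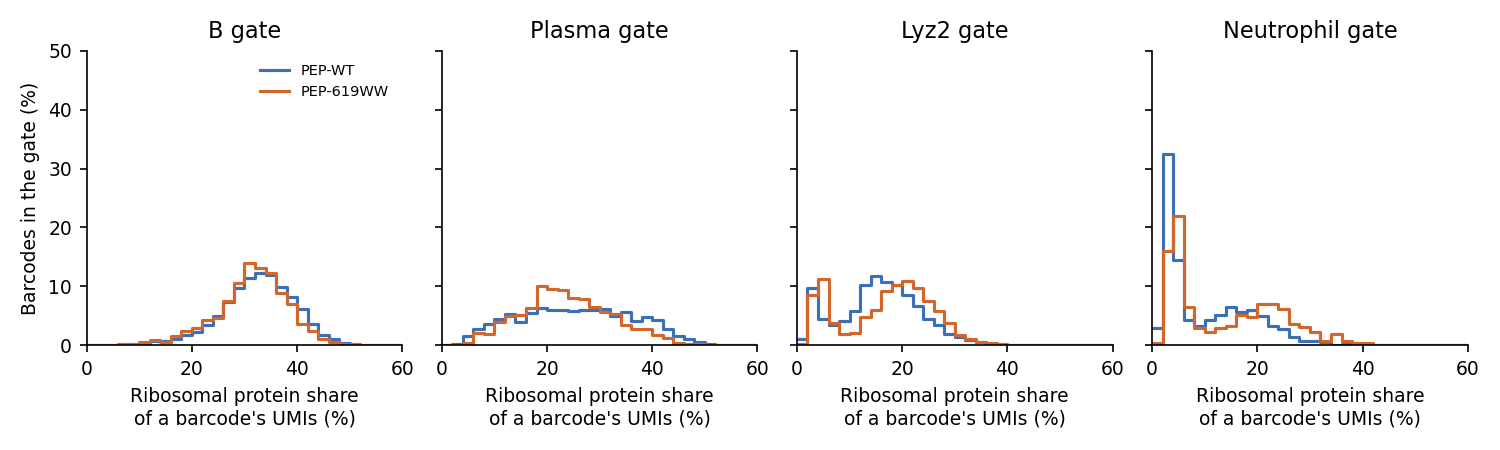
Distribution of the ribosomal protein share of a barcode's UMIs in the B, plasma, Lyz2 and neutrophil gates of run 1, as the percent of barcodes of the gate in bins of 2 percentage points, for PEP-WT (blue) and PEP-619WW (orange). B barcodes form 1 peak with medians of 32.9% and 31.9%, whereas the Lyz2 and neutrophil gates have a second peak under 8%.

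The plasma gate also joined barcodes of different kinds. Plasma cells spend much of their mRNA on antibody, and immunoglobulin genes took 18.2% of the UMIs of the PEP-WT plasma gate and 21.1% in PEP-619WW. Barcodes with 20 or more Mzb1 UMIs had a ribosomal protein share of 20.4% in PEP-WT and 21.0% in PEP-619WW, and those with 5 to 9 had 33.5% and 31.4%. Just outside the gate, at 3 to 4 Mzb1 UMIs, the shares were 33.7% and 30.8%. Plasma barcodes that were not in the B gate were at 18.0% and 19.9%, and those also in the B gate at 27.8% and 25.8%. With immunoglobulin, hemoglobin and mitochondrial genes out of the denominator, the plasma shares were 29.9% in PEP-WT and 29.7% in PEP-619WW.

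CD8 T barcodes with Gzmb, the gene of the cytotoxic granule protease granzyme B, had a smaller ribosomal protein share than those without. The share went from 30.6% to 23.5% of UMIs in PEP-WT, a log2 ratio of -0.38 (-0.38 to -0.38), and from 28.5% to 23.5% in PEP-619WW, a log2 ratio of -0.28 (-0.28 to -0.27). The groups held 487 and 791 barcodes in PEP-WT, and 127 and 727 in PEP-619WW. Barcodes with 1 to 2 Gzmb UMIs, which neither group includes, were at 24.1% and 24.5%. The share differed by little at more Gzmb, where barcodes with 3 to 9 UMIs had 23.4% and 23.6%, and those with 10 or more had 23.6% and 23.4%. The log2 ratio had the same sign under each alternative that was run, between -0.53 and -0.31 in PEP-WT and between -0.42 and -0.11 in PEP-619WW. Depth moved with it: the median barcode had 4865 UMIs without Gzmb and 7521 with it in PEP-WT, and 6296 and 9170 in PEP-619WW. The smaller share was not a smaller number of member UMIs per barcode, which was larger with Gzmb in both genotypes. In PEP-WT 487 barcodes without Gzmb held 1062591 member UMIs and 791 with it held 2131935. In PEP-619WW 127 barcodes held 337982 and 727 held 2424722. Within 2000 to 20000 UMIs per barcode the log2 ratios were -0.49 and -0.42. Effector T cell markers other than Gzmb went from 1814 to 9948 CPM in PEP-WT and from 2593 to 9635 CPM in PEP-619WW, and naive T cell markers from 937 to 162 CPM and from 748 to 155 CPM. Monocyte and macrophage markers went from 280 to 533 CPM in PEP-WT but from 1157 to 506 CPM in PEP-619WW, and their part in the result was not tested. Of the 1157 CPM, 1 marker alone held 879 CPM.

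Of the 83 members with at least 100 UMIs in both groups together, 79 had a log2 ratio below 0 in PEP-WT and 79 in PEP-619WW. In PEP-WT 52 of the 83 were lower past the limit used here for a call, a share of at most 0.8 times that of the other group, and 1 was higher past it. Among all 8121 genes measured in this comparison 18.7% were lower and 24.2% were higher by this limit. In PEP-619WW 22 of 83 were lower and 2 were higher, beside 17.0% and 22.8% of all genes. In PEP-619WW of run 2, the only other case with enough barcodes, 7 of 83 were lower and 5 higher, beside 21.1% and 26.8% of all genes. The median log2 ratio of the members was -0.37 in PEP-WT and -0.27 in PEP-619WW, and that of all genes was 0.05 and 0.04. The lowest ratio was that of Rps27, a zinc finger protein of the small subunit, which had 0.297% of UMIs without and 0.170% with Gzmb in PEP-WT (log2 ratio -0.81, -0.84 to -0.77), and 0.268% and 0.185% in PEP-619WW (-0.54, -0.59 to -0.48). Its copy Rps27rt had log2 ratios of -0.71 and -0.53. Rps24, the most abundant member, went from 0.894% to 0.577% in PEP-WT and from 0.781% to 0.573% in PEP-619WW.

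The exceptions, 4 in each genotype, were mostly relatives of other members in PEP-WT and in part such relatives in PEP-619WW. Rps27l (chr9:66946086-66949516, plus strand), a paralog of Rps27 (chr3:90212522-90213651, minus strand) known as a p53 target, was higher with Gzmb, at 0.0408% and 0.0590% of UMIs in PEP-WT (log2 ratio 0.53, 0.45 to 0.62) and 0.0431% and 0.0573% in PEP-619WW (0.41, 0.28 to 0.54). Rpl36al, an autosomal relative of the X-linked Rpl36a, had log2 ratios of 0.07 and 0.09, and Rpl36a had -0.56 and -0.38. For Rpl7l1 the log2 ratio was 0.15 in PEP-WT, with an interval of -0.09 to 0.39, and -0.13 in PEP-619WW. Rps19bp1, the binding protein, had log2 ratios of 0.09 and 0.73 from few UMIs. In PEP-619WW 1 further member, with 200 residues or more, was above 0, at 0.0015. Of the mitochondrial ribosomal proteins 25 of 78 were higher (32.1%, beside 24.2% of all genes) and 4 lower (5.13%, beside 18.7%) in PEP-WT, with a median of 0.22. In PEP-619WW 18 of 77 were higher (23.4%, near the 22.8% of all genes) and 4 lower (5.19%, beside 17.0%), with a median of 0.14. Of the 3 cytosolic ribosome parts outside the rule 1 was lower and 0 higher in each genotype, with medians of -0.30 in PEP-WT and -0.28 in PEP-619WW.

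**Figure D3:**
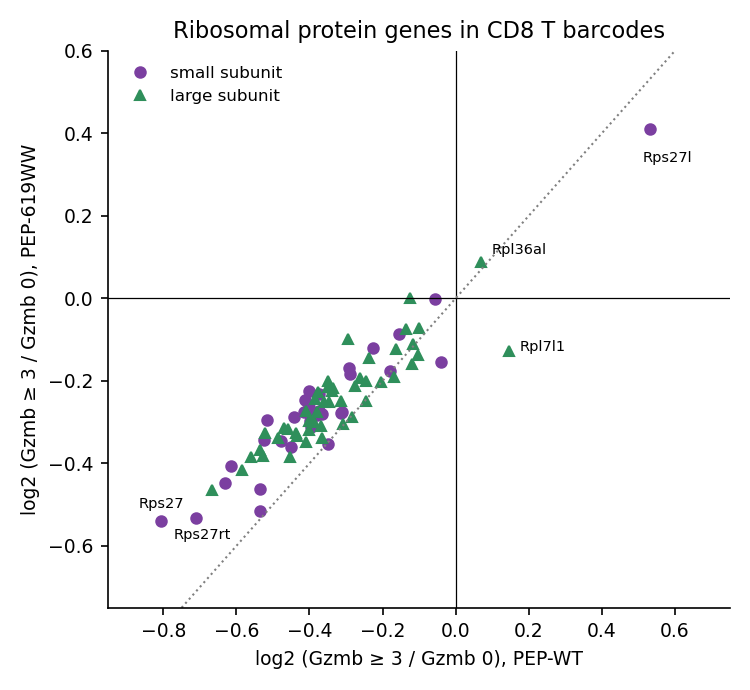
log2 ratio of each member's percent of UMIs in CD8 T barcodes with Gzmb at 3 or more to that in CD8 T barcodes without Gzmb, for PEP-WT (x axis) and PEP-619WW (y axis), for the small subunit (circles) and the large subunit (triangles); the dotted line marks equal ratios and Rps19bp1 is not drawn. Most members lie at the lower left and above the dotted line, with medians of -0.37 and -0.27, and Rps27l lies apart at the upper right.

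Between genotypes, the ribosomal protein share was 0.932-fold to 1.04-fold in PEP-619WW relative to PEP-WT over the 7 gates when UMIs were summed. It was lower in PEP-619WW in CD8 T barcodes without Gzmb (log2 ratio -0.10, -0.11 to -0.10), B (-0.10, -0.10 to -0.10), plasma (-0.07, -0.07 to -0.07) and CD4 T barcodes (-0.03, -0.04 to -0.03). It was higher in Lyz2 (0.02, 0.02 to 0.02) and neutrophil barcodes (0.06, 0.05 to 0.06). In CD8 T barcodes with Gzmb it was 23.5% in both, and the interval of the log2 ratio included 0. With immunoglobulin, hemoglobin and mitochondrial genes left out of the denominator, the ratios in the first 4 gates came nearer to 0 (-0.07, -0.04, -0.01 and -0.0021), and the CD8 T gate with Gzmb was at 0.05. Monocyte and macrophage markers also moved in CD8 T barcodes without Gzmb, from 280 CPM in PEP-WT to 1157 CPM in PEP-619WW, and their part was not tested. The highest single marker held 154 and 879 CPM of these sums. In neutrophil and Lyz2 barcodes the ratio depended on which barcodes were counted, at 0.66 and 0.17 for barcodes in 1 gate only, and at 0.46 and 0.12 for the mean over barcodes. Signs turned with the gate limits or barcodes used in CD4 T, plasma, Lyz2 and neutrophil barcodes: in stricter gates the log2 ratios were 0.03 in CD4 T, 0.04 in plasma and -0.07 in neutrophil barcodes. Since each genotype is 1 library, a difference between mice, pools or library preparations cannot be told apart from one between genotypes.

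Few members passed this limit between genotypes. In CD8 T barcodes without Gzmb 3 of 83 members were higher and 2 were lower in PEP-619WW, beside 13.3% and 15.0% of all genes. In CD8 T barcodes with Gzmb 6 were higher and 1 was lower (12.7% and 12.5% of all genes), and in CD4 T barcodes 1 was higher and 2 were lower (15.8% and 16.7%). B barcodes had 3 higher and 1 lower (13.7% and 11.1%), and plasma barcodes 4 higher and 2 lower (12.0% and 12.6%). Of 84 members measured in the Lyz2 gate 6 were higher and 0 were lower (8.87% and 16.5%), and in the neutrophil gate 4 of 83 were higher and 0 lower (9.27% and 24.1%). Counts for all genes include many with few UMIs, where counting error is larger. Among genes with at least 1000 UMIs in the B gate, 8.28% were higher and 9.86% lower, and 3 and 1 of 83 members. At the same minimum 6 of 81 members were higher and 1 lower in CD8 T barcodes with Gzmb, beside 6.27% and 11.5% of genes, and 5 of 82 higher and 0 lower in the Lyz2 gate, beside 5.13% and 14.3%. In CD4 T barcodes 1 of 80 was higher, beside 7.66%, and in the neutrophil gate 3 of 80, beside 7.74%. The lower calls were below the background in the first 3 of these gates, while the higher calls were near it in CD8 T barcodes with Gzmb and in the Lyz2 gate and below it in B, CD4 T and neutrophil barcodes.

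Individual members had genotype ratios that recurred from gate to gate. Of the 83 members measured in all 7 gates, 17 were above 0 in every gate and 24 below 0 in every gate. With immunoglobulin, hemoglobin and mitochondrial genes out of the denominator these numbers were 22 and 20, which included all 17 and 20 of the 24. The gates come from the same pair of libraries and share barcodes, so that the recurrence does not stand for independent observations. Rps25, a small subunit protein used in translation from internal ribosome entry sites, was the only member past the limit in all 7 gates (the gene lies at chr9:44407139-44410427, GRCm38, plus strand). It had 0.164% of UMIs in PEP-WT and 0.215% in PEP-619WW in CD8 T barcodes without Gzmb, 0.134% and 0.190% in those with Gzmb, and 0.150% and 0.194% in CD4 T barcodes. In the B gate it was at 0.169% and 0.227%, and in the plasma gate at 0.145% and 0.195%. The Lyz2 gate had 0.121% and 0.166%, and the neutrophil gate 0.103% and 0.138%. PEP-619WW was the higher one in each pair, with log2 ratios of 0.37 to 0.50.

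Rps15, a small subunit protein, was past the limit in 5 gates, with log2 ratios of 0.30 to 0.42 over the gates. Rpl10, an X-linked large subunit protein at the peptidyl transferase center, was past the limit in 4 gates (0.19 to 0.44 over all gates) and led the plasma gate with 0.161% and 0.218%. Rpl38, of the large subunit, reached 0.34 in the neutrophil gate (0.137% and 0.174%) and 0.31 in CD4 T barcodes (0.208% and 0.258%). Of the acidic stalk proteins, which recruit elongation factors, Rplp2 was at 0.14 to 0.26 and Rplp1 at -0.01 to 0.25. Rplp0, the base of the same stalk, was at -0.24 to -0.17. This order did not hold in run 2, where Rplp0 was at 0.18 in Lyz2 and -0.00085 in neutrophil barcodes, Rplp1 at -0.24 and -0.34, and Rplp2 at 0.37 and 0.28.

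On the other side stood Rpl22l1, the paralog of Rpl22, at -0.38 to -0.12 over the gates, and Rpl7l1 at -0.47 to -0.13. Rpl22l1 had 0.0777% of UMIs in PEP-WT and 0.0598% in PEP-619WW plasma barcodes (-0.38, -0.41 to -0.35) and 0.0945% and 0.0773% in CD8 T barcodes with Gzmb (-0.29, -0.33 to -0.24). Rpl7l1 was past the limit in 4 gates, but its interval included 0 in the neutrophil gate (-0.43 to 0.08) and in CD8 T barcodes without Gzmb (-0.58 to 0.30). Rpsa, the small subunit protein also called laminin receptor, was at -0.28 to -0.08, and Rpl14 at -0.31 to -0.11 with its lowest value in CD4 T barcodes (0.154% and 0.125%). Rpl21 (-0.35, -0.41 to -0.29) and Rps4x (-0.30, -0.35 to -0.26) were the lowest in CD8 T barcodes without Gzmb among members with at least 500 UMIs there, while Rps19bp1 had -0.63 (-1.31 to 0.01). In the Lyz2 gate Rps19bp1 was next to Rpl7l1 at the lower end, with -0.25 (-0.44 to -0.06).

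These offsets went with the length of the encoded protein in run 1. Over 82 members (without Rpl3l, Rpl39l and Rps19bp1), Spearman's rho between the genotype ratio and the length of the longest annotated coding sequence was -0.54 in CD8 T barcodes without Gzmb and -0.60 in those with Gzmb. It was -0.70 in CD4 T, -0.57 in B, -0.52 in plasma, -0.61 in Lyz2 and -0.58 in neutrophil barcodes. These values are descriptions across genes of 1 pair of libraries. Members with fewer than 120 residues had median log2 ratios between -0.01 and 0.13 in the 7 gates, members with at least 120 and under 200 residues between -0.12 and 0.07, and members with 200 residues or more between -0.21 and -0.05. The 17 members above 0 in every gate had a median of 129 residues, and the 24 below 0 in every gate 211.5 residues. Rpl10, with 214 residues, and Rpl13a, with 203 residues, had ratios above 0 throughout. Rpl22l1, with 122 residues, had a ratio below 0 throughout. These were among the exceptions. With the length of the whole annotated transcript rho was -0.53 to -0.43 in the 7 gates. The transcript used was the one with the longest coding sequence, for example 5179 bases for the 130 residues of Rps15a. It need not be the mRNA that was counted, nor its protein the main form, so protein length and mRNA length were not told apart. With GC content of the annotated transcript rho was 0.11 to 0.21 in the 7 gates, and with the member's UMIs it was -0.48 in CD8 T barcodes without Gzmb, -0.32 in B, -0.30 in CD8 T with Gzmb and -0.28 in plasma barcodes, and -0.16 to -0.05 in the other gates.

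The relation with length was weaker or of opposite sign in other genes, and there was little relation in the other run. Genes outside the list with at least 1000 UMIs had rho with coding length of -0.19 in CD8 T barcodes without Gzmb (439 genes) and 0.24 in B barcodes (5564 genes), and between -0.01 and 0.29 in the other gates. Run 2 had at least 50 barcodes of both genotypes in the Lyz2 and neutrophil gates only, and there rho over the 82 members was 0.11 and 0.13. In the Gzmb comparison within a genotype, where both groups come from 1 library, rho was 0.29 in PEP-WT and 0.20 in PEP-619WW.

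**Figure D4:**
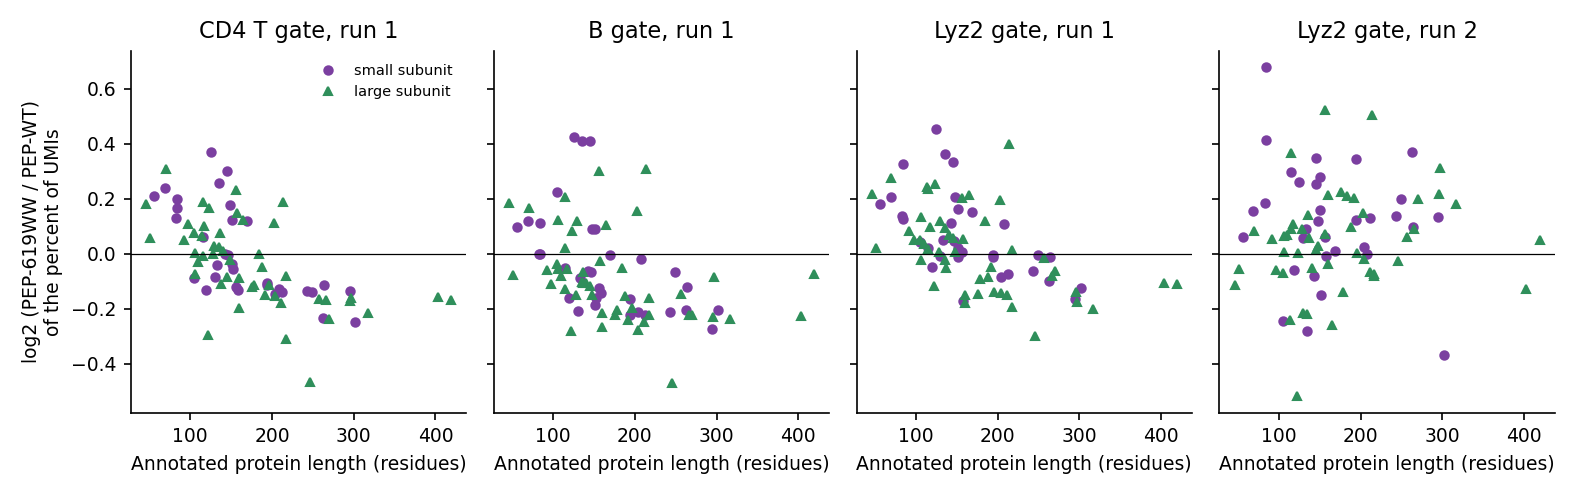
log2 ratio of PEP-619WW to PEP-WT in the percent of UMIs of each ribosomal protein gene (y axis) against the length of the longest annotated protein in residues (x axis), for 82 members in the CD4 T, B and Lyz2 gates of run 1 and the Lyz2 gate of run 2; circles are the small and triangles the large subunit. Points fall from the upper left to the lower right in run 1 (rho -0.70, -0.57 and -0.61) and show no such slope in run 2 (0.11).

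In run 2, the run whose barcode numbers the methods give, some offsets had the same sign as in run 1 and others the opposite sign. The runs may differ in tissue, so their signs are set side by side and run 2 is not a repeat of run 1. Its Lyz2 barcodes (6488 in PEP-WT, 4919 in PEP-619WW) had ribosomal protein shares of 16.9% and 17.7%, and its neutrophil gate 590 and 1071 barcodes with 11.9% and 11.2%. Rps25 was at 0.26 (Lyz2) and 0.21 (neutrophil), Rps15 at 0.35 and 0.30, Rpl10 at 0.50 and 0.41, and Rplp2 at 0.37 and 0.28, all above 0 as in run 1. Rpl38 was at 0.08 in Lyz2 barcodes and at -0.12 (-0.20 to -0.04) in neutrophil barcodes, the gate in which it was highest in run 1. Of the members named above for low ratios, Rpl22l1 was below 0 again, at -0.52 and -0.56, and so was Rpl14, at -0.07 and -0.35. Rps4x was above 0, at 0.37 and 0.10, and Rpl21 was at 0.21 and 0.07. Rpsa was at 0.14 and -0.05, and for Rpl7l1 (-0.03 and -0.09) both intervals included 0. Rpl41 was at -0.11 and -0.35, with a sign opposite to run 1. Of the 17 members above 0 in all gates of run 1, 13 were above 0 in the Lyz2 gate of run 2, beside 56 of all 83, and 10 in the neutrophil gate, beside 27 of 83. Of the 24 below 0 in run 1, 9 were below 0 in the Lyz2 gate, beside 27 of 83, and 17 in the neutrophil gate, beside 56 of 83. For these 24 the shares were close to those of all 83 members in both gates. In the Lyz2 gate 8 of 83 members were higher and 2 lower past the limit in PEP-619WW of run 2, beside 36.3% and 23.0% of all genes. In the neutrophil gate 3 were higher and 12 lower, beside 45.0% and 17.2%.

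The make-up of the ribosomal protein mRNA pool differed between gates by less than the limit for most members. Each member's share of all ribosomal protein UMIs was compared over the 7 gates, both genotypes together, for the 80 members with at least 500 UMIs in every gate. The highest share was 1.17 times the lowest for the median member, and for 58 of the 80 the lowest was over 0.8 times the highest. Rps16 varied least, at 1.77% to 1.84% of ribosomal protein UMIs (1.04 times), followed by Rpl34 (1.05), Rps3 (1.06), Rps4x (1.07) and Rpl22 (1.07). Rps27l varied most, from 0.138% in CD8 T barcodes without Gzmb to 0.299% in plasma barcodes (2.17 times, and 2.19 and 2.13 times in PEP-WT and PEP-619WW alone). Rpl36al went from 0.440% in B to 0.791% in plasma barcodes (1.80 times). Rpl10 and Rpl41 were also highest in plasma barcodes, at 0.813% and 2.42%, against 0.518% in CD8 T barcodes without Gzmb and 1.69% in B barcodes. The range of Rpl10 differed between genotypes, at 1.39 times in PEP-WT and 1.60 times in PEP-619WW, while that of Rpl41 was 1.42 and 1.40 times. Rps27 was highest in B barcodes (1.19%) and lowest in CD8 T barcodes with Gzmb (0.757%).

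Related members made up different parts of their pair from gate to gate. Rps27l made up 9.86% of the UMIs of Rps27l and Rps27 together in PEP-WT B barcodes and 11.4% in PEP-619WW, but 26.0% and 28.6% in plasma barcodes, a gate that shares barcodes with the B gate. In CD8 T barcodes it made up 12.1% and 13.9% without Gzmb and 25.8% and 23.7% with Gzmb. Rpl36al made up 48.7% and 51.8% of its pair with Rpl36a in B barcodes and 63.3% and 65.1% in plasma barcodes. The proteins of this pair have the same length of 106 residues. Rpl22l1 made up 27.4% and 25.6% of its pair with Rpl22 in B barcodes and 34.9% and 30.4% in CD8 T barcodes with Gzmb, and its share of the pair was lower in PEP-619WW in all 7 gates. Rps27rt stood at 2.45 to 2.61% of its pair with Rps27 in PEP-WT and 2.68 to 2.94% in PEP-619WW, nearly constant over the gates. Rps27rt is a retrotransposed copy of Rps27 and encodes a protein of equal length (84 residues), so reads of one may have been counted for the other, and its values are uncertain.

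**Figure D5:**
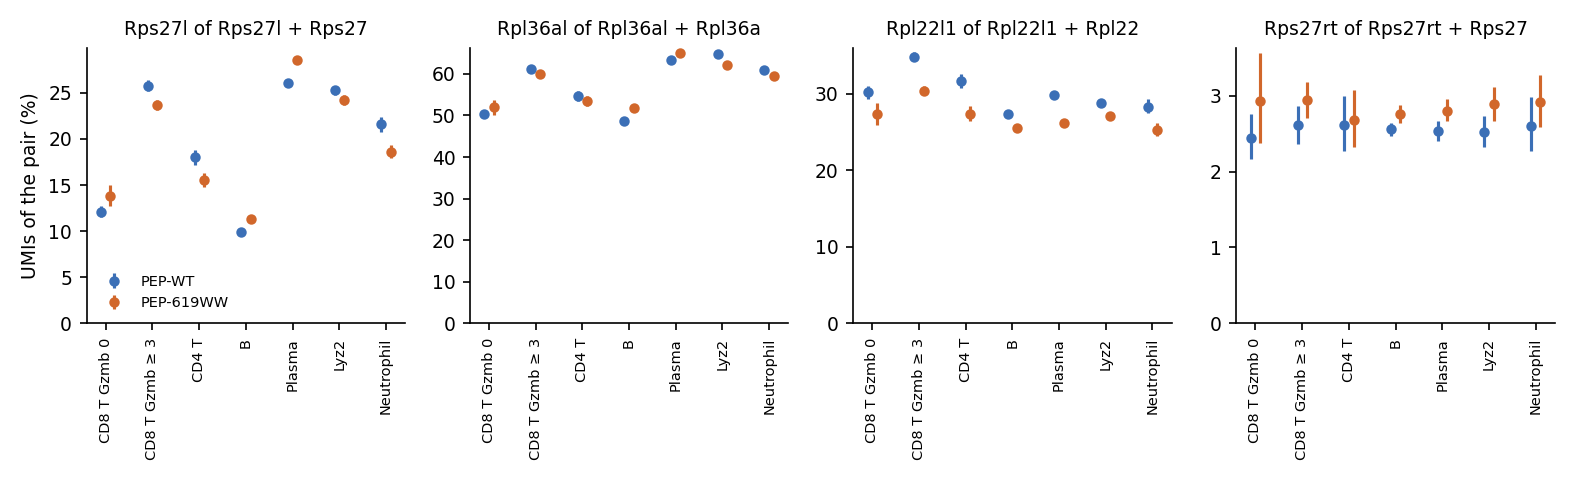
UMIs of the first gene as percent of the UMIs of both genes of a pair in each gate of run 1, for PEP-WT (blue) and PEP-619WW (orange), with exact 95% intervals for counting error. Rps27l goes from 9.86% of its pair in PEP-WT B barcodes to 26.0% in PEP-WT plasma barcodes, while Rps27rt stays between 2.45% and 2.94% in every gate.

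Relatives known from other tissues were close to absent. Rpl39l had 172 UMIs in run 1, with 38 in PEP-WT CD8 T barcodes with Gzmb and 0 in PEP-619WW CD8 T barcodes without Gzmb, where 4744 UMIs of Rpl39 were found and the interval allows up to 0.0777% of the pair. Rpl3l had most of its UMIs in the Lyz2 gate, with 56 UMIs in PEP-WT and 70 in PEP-619WW, at 0.163% and 0.259% of its pair with Rpl3. Its share of the pair was higher in the neutrophil gate, which shares barcodes with the Lyz2 gate, at 0.252% and 0.307% (25 and 28 UMIs). In B barcodes Rpl3l was at 17 and 8 UMIs, or 0.0136% and 0.0124%.

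Of 29 ribosome biogenesis genes, 27 were measured in CD4 T barcodes, and 19 of them were lower past the limit and 0 higher in PEP-619WW, with a median log2 ratio of -0.51 beside -0.05 for the ribosomal proteins and -0.01 for all genes. These 19 were 70.4% of the list, beside 16.7% of all genes. The make-up of the CD4 T gate moved with this, since the 5 effector T cell markers summed to 1562 CPM in PEP-WT and 2455 CPM in PEP-619WW (Ccl5 alone 1015 and 1794 CPM), the 5 B cell markers to 257 and 155 CPM and the 5 red blood cell markers to 1976 and 104 CPM. All of these markers were above 0 in both genotypes, and their part in the result was not tested. In the neutrophil gate 19 of 26 were lower (73.1%, beside 24.1% of all genes) and 1 higher, with a median of -0.48 beside -0.11 for all genes. The make-up of this gate moved too. Its neutrophil markers summed to 8762 CPM in PEP-WT and 15024 CPM in PEP-619WW (1 marker alone 7526 and 13493 CPM). Its T cell markers summed to 628 and 392 CPM, and the part of these markers was not tested. In B barcodes 13 of 29 were lower (44.8%, beside 11.1%) and 0 higher, with medians of -0.30 and 0.01. In Lyz2 barcodes 12 of 29 were lower (41.4%, beside 16.5%) and 1 higher, with medians of -0.29 and -0.07. Markers of other cell types moved in these 2 gates as well. The plasma cell markers summed to 2332.5 CPM in PEP-WT and 3823 CPM in PEP-619WW in the B gate. The neutrophil markers summed to 2723 and 5587 CPM in the Lyz2 gate. Both sums came largely from 1 marker, and their part was not tested. CD8 T barcodes without Gzmb had 11 of 25 lower (44.0%, beside 15.0%) and 0 higher, and plasma barcodes 8 of 29 (27.6%, beside 12.6%) and 0, with list medians of -0.27 and -0.20. In CD8 T barcodes without Gzmb the effector T cell markers were at 1814 CPM in PEP-WT and 2593 CPM in PEP-619WW. The highest single marker held 973 and 1847 CPM of these sums, and the rest of the sum was lower in PEP-619WW. CD8 T barcodes with Gzmb had 3 lower and 3 higher of 29 (10.3% each, near the 12.5% and 12.7% of all genes), with a median of -0.04. Nop56, a core protein of the particles that methylate ribosomal RNA, had log2 ratios of -0.94 in CD4 T, -0.59 in B and -0.36 in CD8 T barcodes with Gzmb. Ncl, the nucleolar protein nucleolin, was at -0.69, -0.31 and -0.07, and Fbl, the methylase of the same particles, at -0.51, -0.35 and -0.12.

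Mitochondrial ribosomal proteins were lower in 15 to 29 of 71 to 78 genes and higher in 0 to 2 over the 7 gates, with medians of -0.27 to -0.08. The share lower was 19.2% to 39.2% over the gates, beside 11.1% to 24.1% of all genes. Translation factors and other TOP genes were lower in 1 to 4 of 18 genes and higher in 0, with medians of -0.19 to -0.09. The share lower was 5.56% to 22.2%, near or below the background in most gates (5.56% beside 12.5% in CD8 T barcodes with Gzmb, and 11.1% beside 24.1% in neutrophil barcodes). Npm1, the nucleolar chaperone nucleophosmin, was the lowest of these in CD4 T (-0.65), B (-0.53) and plasma barcodes (-0.56), and the elongation factor subunit Eef1d was at -0.58, -0.51 and -0.44. Eef1a1, the main elongation factor, was at -0.21 to -0.16 in all gates. Of the 3 ribosome parts outside the rule, 0 passed the limit in any gate, with list medians of -0.09 to 0.15. Among growth signaling genes 5 to 8 of 9 were measured, with 1 to 3 higher (12.5% to 37.5%, beside 8.87% to 15.8% of all genes) and 0 to 2 lower (at most 2 of 8 genes, beside 11.1% to 24.1%). The medians of this list were -0.05 to 0.19 over the 7 gates. Myc, which drives ribosome production, was at -0.73 to -0.18, and Eif4ebp2, an inhibitor of cap-dependent translation, at 0.16 to 0.34. These 2 genes do not stand for the whole list.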

How the data were processed

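The deposited files hold UMI counts per gene and barcode, which the authors made with Cell Ranger (6.0.0 in the submitters' processing notes, mouse genome mm10) and deposited as filtered matrices, not normalized. The study's methods name a different Cell Ranger version. Of the 2 runs, run 1 is the main one, because the rule names it, and run 2, whose barcode numbers the study's methods give, is an alternative. Run 2 may differ from run 1 in the cells themselves and not only in processing. Counts were summed over the barcodes of each gate in each of the 2 genotypes and given as percent of all UMIs. No further filter or doublet caller was applied, and barcodes in several gates were kept. Ratios have exact conditional binomial intervals and shares exact Clopper-Pearson intervals (95%, counting error only). A gene was called past the limit where 1 group's share was at most 0.8 times the other's, with at least 100 UMIs in the groups compared. No p-value was computed. Simulated counts for the B gate (10882 genes, 200 changed 1.5-fold) gave 94.5% of changed and 3.08% of unchanged genes past the limit. These counts held counting error only, without differences between mice or libraries, and gates with fewer UMIs were not simulated. The named members were the 5 highest and 5 lowest, the 2 highest and 2 lowest ratios per comparison (at least 500 UMIs), the 5 most and 5 least variable over gates, and relatives and stalk proteins. The members and lists were chosen with earlier results of these data known, and splits near gate limits, the 8% limit and the Mt2 alternative after seeing the data. Gene places came from GENCODE vM21. Python 3.11.15, numpy 2.4.6, scipy 1.17.1 and pandas 2.3.3 were used. Some genes that the rules would name are not reported here.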

Additional observations from a re-analysis of the deposited data

Results flagged for a closer look

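The genotype difference in the ribosomal protein share went in opposite directions in different gates of run 1. The log2 ratio of PEP-619WW to PEP-WT was 0.020 in Lyz2 and 0.0564 in neutrophil barcodes, but -0.102 in CD8 T barcodes without Gzmb, -0.0324 in CD4 T, -0.0971 in B and -0.0671 in plasma barcodes. With 1 library per genotype the difference between gates was not tested, and gates share barcodes.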

How the results depend on the processing

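All values are log2 ratios of the ribosomal protein share unless counts are named, and the causes of the changes were not tested. For PEP-619WW over PEP-WT in CD8 T barcodes without Gzmb, CD8 T with Gzmb, CD4 T, B, plasma, Lyz2 and neutrophil barcodes, leaving out immunoglobulin, hemoglobin and mitochondrial genes gave -0.069, 0.046, -0.0021, -0.041, -0.0095, 0.058 and 0.091. Barcodes in 1 gate only gave -0.083, 0.0067, -0.042, -0.021, 0.144, 0.168 and 0.658, with plasma reversed. Barcodes with 2000 to 20000 UMIs gave -0.037, 0.026, -0.022, -0.064, -0.063, -0.015 and 0.024, with Lyz2 reversed. The mean over barcodes gave -0.122, 0.021, -0.062, -0.048, -0.099, 0.121 and 0.462. Stricter gates gave -0.036 in CD8 T with Gzmb, 0.034 in CD4 T (reversed), -0.070 in B, 0.040 in plasma (reversed), 0.010 in Lyz2 and -0.073 in neutrophil barcodes (reversed). Fewer than 10 Mt2 UMIs, an alternative chosen after seeing the data, gave -0.067 in CD8 T without Gzmb, -0.019 in CD4 T, -0.088 in B, -0.065 in plasma, 0.023 in Lyz2 and 0.085 in neutrophil barcodes. Run 2 gave 0.062 in Lyz2 and -0.082 in neutrophil barcodes (reversed). For Gzmb in PEP-WT and PEP-619WW, the same alternatives gave -0.383 and -0.269 (denominator), -0.491 and -0.401 (1 gate), -0.310 and -0.248 (stricter gates), -0.486 and -0.422 (depth), -0.533 and -0.391 (mean over barcodes) and -0.386 and -0.317 (Mt2), and run 2 gave -0.113 in PEP-619WW.

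The number of members past the fold limit in CD4 T barcodes was 3, and 1 at a minimum of 1000 UMIs (all genes 7.66% higher and 14.7% lower), 5 with no minimum (27.3% and 28.4%) and 5 without immunoglobulin, hemoglobin and mitochondrial genes (18.0% and 14.5%). It was 6 in Lyz2 and 10 in run 2, 4 in neutrophil barcodes, 8 without those genes (10.7% and 20.8%) and 15 in run 2, and 24 for Gzmb in PEP-619WW and 12 in run 2. A limit of 10% mitochondrial UMIs left each share ratio within its counting interval. Run 2 had under 50 barcodes in a genotype in the other gates, which were not computed. No paired analysis was possible because each genotype has 1 library per run, and for the same reason no replicate could be left out.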
